A study of Mus musculus with 4 samples.

Results

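The 10 genes described here encode the MHC class I molecule and the machinery that makes, carries and loads the peptides it displays. They were chosen by symbol: B2m, H2-K1, H2-D1, Tap1, Tap2, Tapbp, Psmb8, Psmb9, Psmb10 and Erap1. Of the 18193 genes that a probe set of the array names alone, these are 10, measured by 28 probe sets. Each gene is given by the probe set with the highest mean of its log2 values over the 4 arrays. All 10 passed the filter on dim genes, a mean at or above that of the median probe set (an intensity of 106.4), and were tested among 11614 genes. Differences are on the scale of log2(intensity + 16).

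The study measured RNA of leukemic blasts on 4 Affymetrix mouse arrays, 1 for the spleen and 1 for the peripheral blood of each of 2 mice. The M7 leukemia, which is megakaryoblastic, came from Gata1s fetal progenitors by retroviral insertional mutagenesis. The blasts were taken straight from the mice, sorted for the GFP that the retrovirus carries, and had no treatment. All 4 samples bear the same leukemia designation, T6(6), and all carry the Gata1 mutation and the retrovirus, so the series holds no normal cells and no untransformed control. The age and strain of the mice are not given in the labels, nor whether both mice hold cells of 1 leukemia. The replicates of a tissue are therefore 2 animals, and the p-values cover no other source of spread. The standard errors and p-values from limma are moderated. Each gene's spread between the animals is drawn towards a spread estimated over all tested genes, so the errors given are not the spread of that gene alone.

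MHC class I is shown by nearly all nucleated cells. Proteins in the cytosol are cut by the proteasome, in which the interferon-induced subunits Psmb8, Psmb9 and Psmb10 can replace the constitutive ones. The transporter made of Tap1 and Tap2 carries the peptides into the endoplasmic reticulum, Erap1 trims them, and Tapbp (tapasin) holds the empty heavy chain at the transporter until a peptide binds. Heavy chain, B2m and peptide then travel to the surface, where cytotoxic T cells read them and natural killer cells register their absence.

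The 4 arrays had median intensities of 103.7 to 108.3 in spleen and of 108.8 to 110.6 in blood. Of 10 measured megakaryocyte markers, 9 were bright enough to be tested, among them Pf4, the platelet chemokine, at 8341 and 8680 in spleen of mouse 1 and mouse 2, against 7507 and 7767 in blood. The integrin Itgb3 was not, at 39.7 and 122.6 in spleen, against 15.9 and -4.17 in blood. With limma and Benjamini-Hochberg adjustment over all genes, 0 of 11614 genes differed between spleen and blood, while 1443 had an unadjusted p under 0.05. The median log2 difference over all tested genes was 0.03, spleen minus blood.

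RNA of all 10 class I genes was measured above the filter in the blasts, and the small differences between sites ran mostly towards less in spleen. With limma 0 of 10 genes passed, where 0% of all tested genes did, and adjusted p-values lay between 0.354 and 0.996. At an unadjusted p under 0.05, 1 of the 10 was lower in spleen, where 4.31% of all genes were, and 0 were higher, where 8.12% were. A difference of 2-fold or more that both mice shared was found for 0 of the 10 genes, and for 0.164% of all genes. Spleen was below blood in both mice for 6 of the 10 genes, a pattern shown by 25.1% of all tested genes. The 6 include H2-D1, whose difference within mouse 1 was close to 0, at -0.0069. Spleen was above blood in both mice for 1 gene, Erap1, where 38.5% of all genes were, and 3 genes went opposite ways in the mice, as did 36.4% of all genes. The median difference of the 10 genes was -0.11, with -0.08 within mouse 1 and -0.23 within mouse 2. Over all tested genes these medians were 0.03, 0.07 and 0.01. The count of 6 was 8 with quantile normalization and 5 with each array centred on its median. The median over all tested genes moved as well, to 0.0067 and 0.072. The share of all genes lower in both mice is not given for these scalings, and 25.1% does not apply to them. These counts describe the list and test nothing, since the genes were picked with earlier results of these arrays known.

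**Figure D1:**
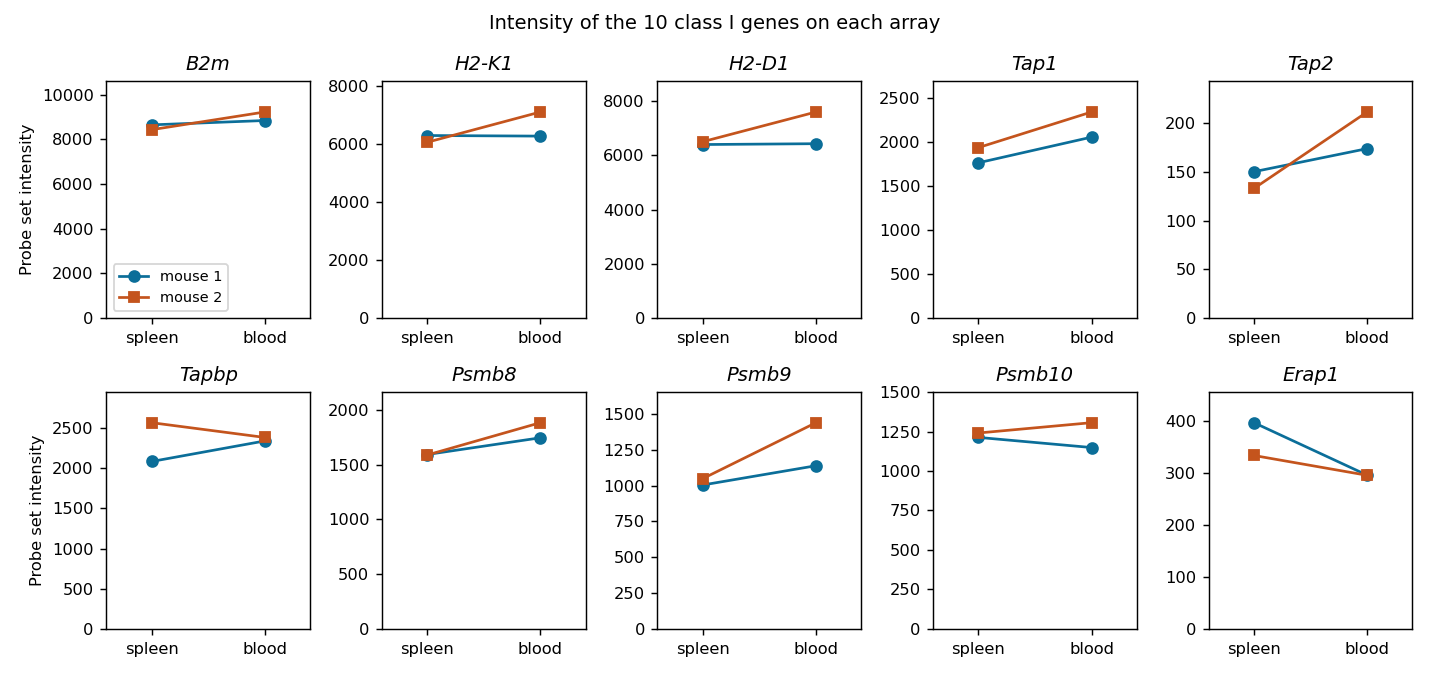
Probe set intensity (vertical axis from 0, a scale of its own for each gene) of the 10 class I genes in spleen and in blood. Circles are mouse 1 and squares mouse 2, and each line joins the 2 arrays of a mouse; blood of mouse 2 is the highest array for 8 of the 10 genes.

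The heavy chains H2-K1 and H2-D1 and the light chain B2m form the molecule itself. B2m had intensities of 8644 and 8428 in spleen of mouse 1 and mouse 2, against 8838 and 9220 in blood. Both spleen arrays lay below both blood arrays, by small margins. The log2 differences, spleen minus blood, were -0.03 in mouse 1 and -0.13 in mouse 2, and the fitted difference was -0.08 ± 0.11 (SE, 2 arrays per tissue; limma adjusted p = 0.799). Its second probe set gave -0.06 and -0.12.

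H2-K1, a classical heavy chain, had 6288 and 6056 in spleen of mouse 1 and mouse 2, against 6267 and 7098 in blood. Blood of mouse 2 stood above the other arrays, which were alike, so the tissues overlapped. H2-D1, the other classical heavy chain, had 6395 and 6500 in spleen, against 6425 and 7593 in blood, with the same array on top. The fitted differences were -0.11 ± 0.12 for H2-K1 (limma adjusted p = 0.742) and -0.12 ± 0.13 for H2-D1 (limma adjusted p = 0.748). Within mouse 1 and mouse 2 the differences were 0.0047 and -0.23 for H2-K1 and -0.01 and -0.22 for H2-D1. In mouse 1 the H2-K1 value was -0.06 with quantile normalization, and the H2-D1 value was 0.02 with arrays centred on their medians. Without blood of mouse 2 the fitted difference of H2-D1 was 0.0048.

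All 4 probe sets of H2-K1 and 7 of the 9 of H2-D1 carry the suffix _x_at, which the array's maker gives to sets whose probes can also match other transcripts. The values of H2-K1 and H2-D1 are therefore uncertain as to which class I gene they measure. A probe set that the annotation gives to H2-K1 and H2-D1 together read 5893 and 5869 in spleen of mouse 1 and mouse 2, against 6057 and 6817 in blood. Blood of mouse 2 was again the highest array. An H2-D1 probe set without the suffix, at 1266 and 1390 in spleen against 1525 and 1724 in blood, differed by -0.27 in mouse 1 and -0.31 in mouse 2. It was the sole H2-D1 set without that suffix to reach the filter, and in it both spleen arrays lay below both blood arrays.

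The promoters of the 3 chains are shown because they hold the elements through which class I genes are known to respond to NF-kB, to interferon and to the activator Nlrc5. Each line gives the 250 bases before the RefSeq transcript start (GRCm38.p6), 5′ to 3′ on the strand of the gene. Capitals mark matches, on either strand, to GGGATTCCC (the core of enhancer A, a site of NF-kB), to GAANNGAAA and AAANNGAAA (cores of interferon elements), to CCAAT and to TGNTGACG (a stretch like an X box).
H2-K1, chr17:34000348-34000597, minus strand: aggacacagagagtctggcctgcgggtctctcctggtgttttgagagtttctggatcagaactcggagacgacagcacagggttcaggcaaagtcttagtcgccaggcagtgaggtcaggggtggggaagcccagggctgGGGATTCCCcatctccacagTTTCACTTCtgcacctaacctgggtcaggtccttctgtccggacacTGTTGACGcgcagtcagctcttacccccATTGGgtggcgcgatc
H2-D1, chr17:35262844-35263093, plus strand: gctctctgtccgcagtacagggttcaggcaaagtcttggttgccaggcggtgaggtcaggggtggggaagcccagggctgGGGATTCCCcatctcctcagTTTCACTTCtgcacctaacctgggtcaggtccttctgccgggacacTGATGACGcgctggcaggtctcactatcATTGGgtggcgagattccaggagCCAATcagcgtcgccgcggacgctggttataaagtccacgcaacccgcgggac
B2m, chr2:122147437-122147686, plus strand: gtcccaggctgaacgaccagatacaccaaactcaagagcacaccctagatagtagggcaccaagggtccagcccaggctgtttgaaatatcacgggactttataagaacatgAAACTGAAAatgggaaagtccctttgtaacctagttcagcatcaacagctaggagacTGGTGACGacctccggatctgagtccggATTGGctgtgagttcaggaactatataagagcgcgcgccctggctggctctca
The H2-K1 and H2-D1 windows matched at 166 of 188 aligned bases (88.3%) in their best local alignment. In H2-K1 the enhancer A core starts 110 bases before the transcript start and TTTCACTTC, an interferon element in reverse, 90 bases before it; in H2-D1 these distances are 170 and 150 bases. Both windows then hold the X box like stretch and a reverse CCAAT box, and H2-D1 holds a CCAAT box in the forward direction as well. B2m holds the interferon element AAACTGAAA, the X box like stretch TGGTGACG and a reverse CCAAT box, and no enhancer A core in these letters. Of 32851 promoter windows of this length, 0.301% hold the enhancer A core, 6.31% GAANNGAAA, 9.37% AAANNGAAA, 1.83% TGNTGACG and 33.8% CCAAT. The motifs were picked with the sequences in view, a match is a description and no site, and no matches overlap in the printed windows. Promoters were listed for 9 of the 10 genes, and H2-K1 had 2 listed starts, of which the first is shown.

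In the probe sets used, the peptide transporter was lower in spleen in both mice for both of its subunits. Tap1 had intensities of 1763 and 1935 in spleen of mouse 1 and mouse 2, against 2054 and 2339 in blood. All spleen values lay below all blood values, and the within-mouse differences were close, at -0.22 and -0.27. The fitted difference was -0.25 ± 0.13 (SE; limma adjusted p = 0.484). The other 3 Tap1 probe sets had mean intensities of 20.9 to 32.4 and did not reach the filter of 106.4. With all its probe sets averaged, Tap1 was too dim to be tested, and its differences were -0.24 within mouse 1 and 0.26 within mouse 2, where the sign turned.

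Tap2 was dim, at 150.1 and 133.0 in spleen of mouse 1 and mouse 2, against 173.8 and 211.3 in blood. Both spleen arrays were again below both blood arrays, and blood of mouse 2 was the highest. Tap2 had the largest fitted difference of the 10 genes, -0.40 ± 0.14, with a 95% interval from -0.74 to -0.06, an unadjusted p of 0.0280 and an adjusted p of 0.354 with limma. It was measured by 1 probe set. With an offset of 64 in place of 16 before the log, the difference was -0.32. Without blood of mouse 2 it was -0.27, and without blood of mouse 1 it was -0.53.

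Psmb9, Tap1, Psmb8 and Tap2 follow each other on chromosome 17 with no other protein-coding gene between them, in the class II region of the MHC. Psmb9 and Tap1 are read away from each other, and their starts lie 226 bases apart. The stretch between them is shown because both genes, which were lower in spleen in both mice, share it as their promoter. It is written on the Tap1 strand, with the same capitals, and runs past the Psmb9 start at its left end.
Tap1 and Psmb9, chr17:34187306-34187555, plus strand: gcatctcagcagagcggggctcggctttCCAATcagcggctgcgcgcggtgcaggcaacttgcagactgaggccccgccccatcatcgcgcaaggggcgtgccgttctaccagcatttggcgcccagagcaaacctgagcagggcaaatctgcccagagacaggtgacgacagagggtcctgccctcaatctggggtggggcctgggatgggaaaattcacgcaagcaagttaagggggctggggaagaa
Its single match is a CCAAT box that lies close to the Psmb9 start and far from that of Tap1.

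Among the immunoproteasome subunits, Psmb9 and Psmb8 were lower in spleen in both mice and Psmb10 was not. Psmb9, which replaces Psmb6, had 1004 and 1049 in spleen of mouse 1 and mouse 2, against 1139 and 1439 in blood. All spleen values were below all blood values, with blood of mouse 2 the highest. The differences were -0.18 in mouse 1 and -0.45 in mouse 2, and the fit gave -0.31 ± 0.15 (SE; limma adjusted p = 0.441). Psmb8, which replaces Psmb5, had 1593 and 1588 in spleen, against 1745 and 1883 in blood. The spleen arrays were close to each other and both below blood, with differences of -0.13 and -0.24 and a fitted difference of -0.19 ± 0.11 (limma adjusted p = 0.540). A second, dimmer Psmb8 probe set gave -0.09 and -0.11.

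Psmb10, which replaces Psmb7 and lies on chromosome 8, had 1213 and 1241 in spleen of mouse 1 and mouse 2, against 1149 and 1306 in blood. Spleen lay between the blood arrays, the mice went opposite ways at 0.08 and -0.07, and the fitted difference was 0.0021 ± 0.12 (limma adjusted p = 0.996). Its 95% interval ran from -0.29 to 0.30.

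The chaperone Tapbp and the peptidase Erap1 did not share the direction of the transporter. Tapbp had 2085 and 2568 in spleen of mouse 1 and mouse 2, against 2341 and 2384 in blood. The spleen arrays lay on either side of blood, and the differences were -0.17 and 0.11, with a fitted value of -0.03 ± 0.14 (limma adjusted p = 0.944). A dimmer Tapbp probe set gave 0.06 and 0.92, so the sets disagreed within mouse 1, and with both sets averaged the fitted difference was 0.23.

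Erap1, which trims peptides in the endoplasmic reticulum, had 397.4 and 334.2 in spleen of mouse 1 and mouse 2, against 296.3 and 296.0 in blood. Both spleen arrays were above both blood arrays, which no other of the 10 genes showed and 27.5% of all tested genes did. The differences were 0.40 and 0.17, and the fit gave 0.29 ± 0.13 (SE; limma adjusted p = 0.437). A second Erap1 probe set gave 0.29 in mouse 1 and 0.60 in mouse 2.

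**Figure D2:**
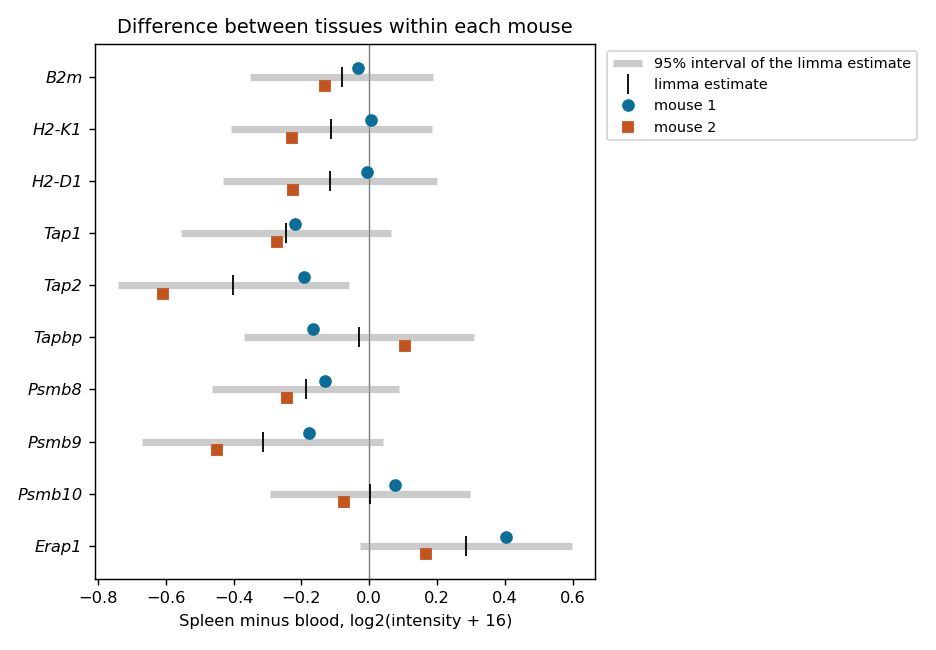
Log2 difference of spleen minus blood (horizontal axis) for each of the 10 genes. Circles are mouse 1, squares mouse 2, black ticks the limma estimate and grey bars its 95% interval, which excludes 0 for Tap2 alone before adjustment over all genes.

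Across genes, both spleen arrays lay below both blood arrays for 5 of the 10: B2m, Tap1, Tap2, Psmb8 and Psmb9. Of all tested genes, 17.6% did so. The count was 7 with quantile normalization and 4 with centred arrays. The share of all genes with these scalings is not given, so these counts cannot be set against the 17.6%. The 6 genes lower in both mice, these and H2-D1, were each further below in mouse 2 than in mouse 1, where 16.8% of all genes were lower in both mice and further in mouse 2. Over the 22 probe sets of the 10 genes that reached the filter, 12 were lower in spleen in both mice and 3 were higher in both. These sets repeat genes, with 4 of H2-K1 and 6 of H2-D1 among the 22. The share over all probe sets was not computed, so the count is a description alone. The sets that departed most were 1 of H2-D1, at -1.02 in mouse 2 with -0.04 in mouse 1, and the dimmer one of Tapbp.

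**Figure D3:**
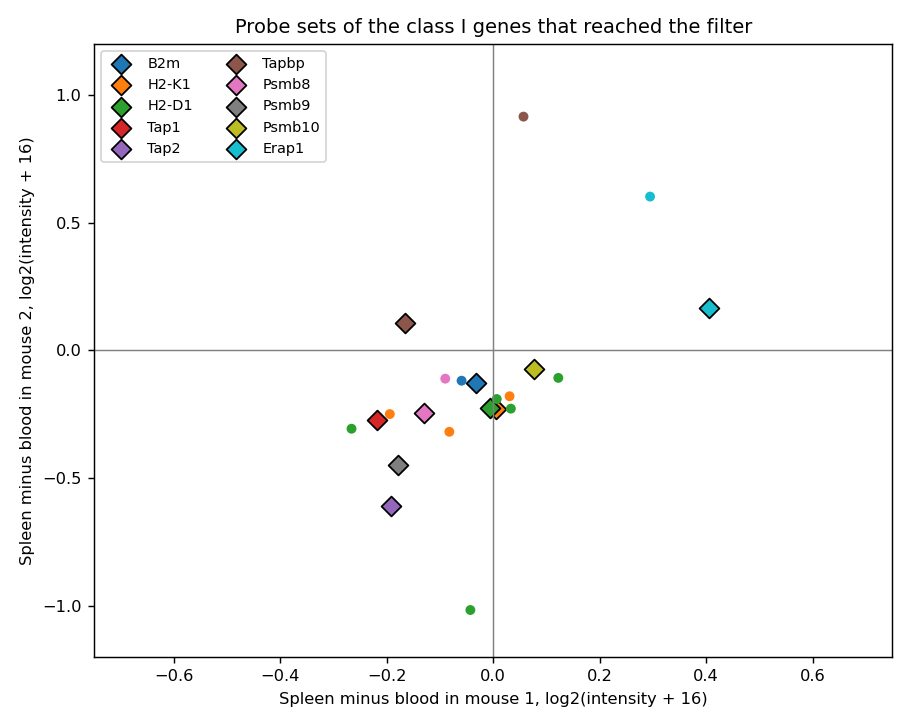
Log2 difference of spleen minus blood in mouse 1 (horizontal axis) and in mouse 2 (vertical axis) for the 22 probe sets that reached the filter. Colours are genes, and outlined diamonds are the probe sets used for each gene. At the lower left, below 0 in both mice, lie 12 sets, several of them of the same gene.

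A single array stood high for most of the 10 genes. Blood of mouse 2 was the highest array for 8 of the 10 genes, where it was highest for 26.9% of all tested genes. Set against mouse 1, blood of mouse 2 was higher for 9 of the 10, where 54.3% of all genes were, with a median log2 difference of 0.18, mouse 2 minus mouse 1. The same median over all genes was 0.02. In spleen, mouse 2 was above mouse 1 for 5 of the 10, where 42.4% of all genes were, with a median of 0.01. Each side of these comparisons is 1 array, so there is no test. Without blood of mouse 2 the median difference between tissues was -0.04 over the 10 genes, and without blood of mouse 1 it was -0.22. No median over all genes is given for these fits. Within mouse 1, which does not use blood of mouse 2, the median of the 10 genes was -0.08, against 0.07 over all genes. How far the pattern rests on that array was not tested. With blood of mouse 2 left out, 5 of the 10 genes had both spleen arrays below the remaining blood array. Leaving out an array cannot lower this count, so it does not show whether the pattern depends on that array.

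Markers of some other blood cells also stood high in blood of mouse 2, in samples that had all been sorted for GFP. Whether host cells passed that gate was not tested. All 8 tested granulocyte markers were lower in spleen in both mice, where 25.1% of all tested genes were. The summed intensity of the 10 measured markers was 4176 and 1188 in spleen of mouse 1 and mouse 2, against 6886 and 17238 in blood. The 13 measured markers of macrophages and monocytes summed to 2494 and 1307 in spleen, against 1804 and 3876 in blood. Lower in both mice was 1 of 6 tested markers, beside the same 25.1% of all genes. Blood of mouse 2 was the highest array for 5 of the 6, as for 26.9% of all genes. This list was mixed: C1qa, C1qb, C1qc and Mrc1, too dim to be tested, were highest in spleen of mouse 1. C1qb had 273.4 and 60.8 in spleen, against 30.9 and 62.2 in blood. C1qc had 230.7 and 71.7 in spleen, against 29.7 and 37.3 in blood. The 13 markers of T and NK cells summed to 9019 and 5774 in spleen, against 7751 and 10937 in blood, with 4 of 11 lower in both mice. Neither the 1 of 6 nor the 4 of 11 is far from the share of all genes. The difference within mouse 2 was largest for the granzyme Gzma, at 2757 and 170.7 in spleen against 1338 and 3486 in blood. T cell receptor subunits varied: Cd3e was at 238.2 and 182.7 in spleen against 287.6 and 180.2 in blood. Cd3g was lower in spleen in both mice, at 241.7 and 151.7 against 321.8 and 250.9 in blood. Cd3d, too dim to be tested, went opposite ways in the mice, as Cd3e did. Further lists showed no such array: the 7 measured B cell markers summed to 1020 and 908 in spleen, against 891 and 900 in blood, and the 7 dendritic cell markers to 677 and 669 in spleen, against 720 and 669 in blood. No marker of these lists was under 16 on all 4 arrays, but the neutrophil granule gene Camp was below 0 in spleen of mouse 2 and the macrophage gene C1qa in that array and in both blood arrays. Class I genes are active in these cells too, and the part of such RNA in the class I values was not tested. The megakaryocyte markers, those of the lineage in the leukemia label, ran opposite to most class I genes. With 0 past the adjusted threshold, 8 of 9 were higher and 0 lower in spleen in both mice, where 38.5% and 25.1% of all genes were, and their summed intensity was 24125 and 25394 in spleen, against 20722 and 20369 in blood. Their part in the class I values was not tested either. In bulk RNA, fewer cells of a type and less RNA per cell cannot be told apart.

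Regulators of class I were compared with the same fit. Of 14 tested genes for transcription factors of class I promoters, 0 passed, 5 were lower and 4 higher in both mice, where 25.1% and 38.5% of all genes were. Their median was -0.03 and had no stable sign, at 0.02 with centred arrays and between -0.11 and 0.03 with 1 array left out, the lowest without spleen of mouse 1 and the highest without spleen of mouse 2. Nlrc5, the transactivator dedicated to class I genes, had 423.9 and 379.1 in spleen of mouse 1 and mouse 2, against 512.1 and 587.0 in blood. Both spleen arrays were below both blood arrays, with the same top array as most class I genes, and the fitted difference was -0.44 ± 0.13 (limma adjusted p = 0.315). Irf2, an interferon factor that binds class I promoters, differed by -0.17 and -0.21 within mouse 1 and mouse 2 (limma adjusted p = 0.591). On the other side, Nfyb, a subunit of the factor that binds CCAAT boxes, was at 364.6 and 316.4 in spleen, against 233.5 and 208.6 in blood, a fitted difference of 0.59 ± 0.13 (limma adjusted p = 0.213). Usf1, a factor that binds E boxes, differed by 0.22 and 0.66 (limma adjusted p = 0.358).

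Interferon targets beyond class I showed a like direction. Of 32 tested genes of the interferon response, 0 passed, 21 were lower and 4 higher in both mice, where 25.1% and 38.5% of all genes were. For 25 the highest array was blood of mouse 2, as for 26.9% of all genes. Their median was -0.19, with -0.10 within mouse 1 and -0.28 within mouse 2, and it was -0.11 without blood of mouse 2. Oas2, an enzyme of the antiviral RNA sensor pathway, differed by -0.54 and -0.45, Ifit3 by -0.36 and -1.29 and the factor Irf7 by -0.24 and -0.54 within mouse 1 and mouse 2. Of the 7 genes for interferon receptors and their kinases, 3 were lower in both mice and 1 higher, where 25.1% and 38.5% of all genes were. The kinase Tyk2 differed by -0.38 and -0.33.

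In the list named the constitutive proteasome core, most small differences ran the other way from Psmb8 and Psmb9. Of its 15 tested genes 0 passed, and 11 were higher and 0 lower in spleen in both mice, where 38.5% and 25.1% of all genes were. Their median was 0.12, with 0.14 within each mouse, and it was 0.058 with quantile normalization. The catalytic subunits that the immune ones replace differed within mouse 1 and mouse 2 by 0.05 and 0.01 for Psmb5, by 0.18 and -0.04 for Psmb6 and by 0.10 and 0.30 for Psmb7. Psma1, an outer ring subunit, had 3751 and 3534 in spleen, against 2876 and 2877 in blood (fitted 0.34 ± 0.11; limma adjusted p = 0.344). Beyond Psmb5, Psmb6 and Psmb7, the genes of this list are not particular to the constitutive proteasome. Whether the immune subunits and those they replace differ in their change was not tested.

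Among 12 tested genes of folding and peptide supply, 0 passed, 7 were higher and 3 lower in both mice, where 38.5% and 25.1% of all genes were. Their median was 0.10, and 0.045 with quantile normalization. Canx (calnexin), which holds new heavy chains before they meet B2m, had 4324 and 4526 in spleen of mouse 1 and mouse 2, against 2925 and 2410 in blood. All spleen values were above all blood values, and the fitted difference was 0.73 ± 0.14 (limma adjusted p = 0.173). With an intensity trend in the limma prior, Canx passed with an adjusted p of 0.0491, the 1 gene of this list to do so. Pdia3, the disulfide isomerase of the loading complex, differed by 0.45 and 0.55, while Tapbpl, a relative of tapasin that edits peptides, differed by -0.20 and -0.26 within mouse 1 and mouse 2. Calnexin and Pdia3 serve glycoprotein folding in general and not class I alone.

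Of 8 measured class I-like genes, 3 were tested and all 3 went opposite ways in the mice, as did 36.4% of all tested genes. H2-M3, which presents formylated peptides, differed by 0.02 in mouse 1 and -0.21 in mouse 2, Cd1d1, which presents lipids, by 0.03 and -0.30, and Fcgrt, the neonatal Fc receptor chain that pairs with B2m, by 0.09 and -0.30. Of 9 tested MHC class II genes, which antigen-presenting cells express, 4 were lower and 0 higher in both mice, where 25.1% and 38.5% of all genes were. The other 5 went opposite ways, as did 36.4% of all genes, and 0 passed. The invariant chain Cd74, named after its values were seen, had 705.3 and 457.2 in spleen of mouse 1 and mouse 2, against 376.8 and 1518 in blood. That made spleen the higher tissue in mouse 1 and the lower in mouse 2, at 0.88 and -1.70. H2-DMa, which helps to load class II peptides, was lower in spleen in both mice, at -0.16 and -0.90. The median of the 9 genes was -0.01 within mouse 1 and -0.90 within mouse 2.

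**Figure D4:**
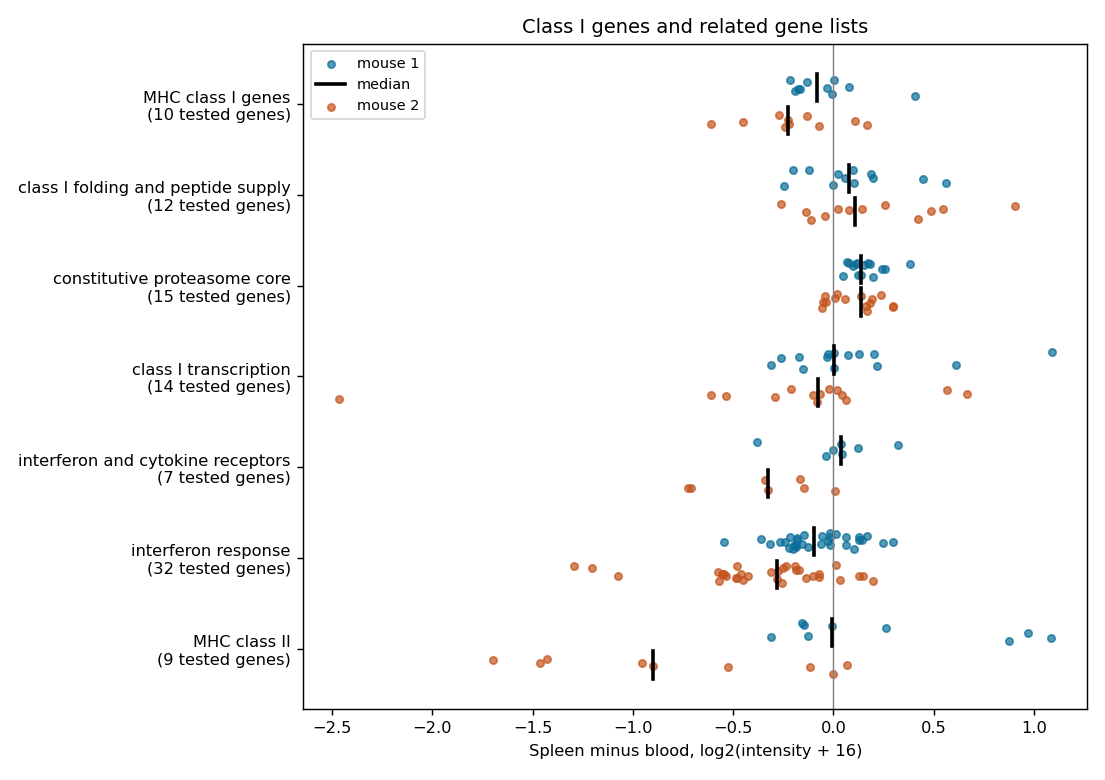
Log2 difference of spleen minus blood (horizontal axis) of each tested gene, by list, with mouse 1 above mouse 2 in each pair of rows; black bars are medians. The class I genes lie at -0.08 and -0.23, the constitutive proteasome core at 0.14 in both mice and MHC class II at -0.01 and -0.90.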

How the data were processed

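RNA of leukemic blasts sorted for GFP was hybridised as biotinylated cRNA to Affymetrix arrays, per the labels' protocols. What the authors deposited are linear intensities, 1 per probe set and array, of which some are below 0. The summary, background and scaling methods of the authors are not given in the sources used here. Intensities were floored at 0 and put on a log2 scale after adding an offset of 16, so fold changes of dim genes are understated. Of 45101 probe sets, 34945 named 1 gene, 932 several, and 9160 had no gene listed; 64 were controls. Symbols were updated by Entrez identifier through a RefSeq table of GRCm38.p6, which held 34741. Genes whose mean reached the median probe set (an intensity of 106.4) were tested with limma 3.58.1 in R 4.3.3 (lmFit, eBayes, two-sided, tissue as the term, all 4 arrays, Benjamini-Hochberg at 0.05), checked on simulated data.

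The labels name the animal, so arrays of the same mouse form a pair. Across genes, mouse 2 minus mouse 1 in blood correlated with the same in spleen at r = 0.10. The members and lists were chosen with earlier results of these data known. Named genes are the 10 members and, of each related list, at most 4 with the same sign in both mice, ranked by the lesser of both differences, and those a comparison turns on. The markers, class I-like genes and class II genes that were given beside these were named after their values were seen. Genes of the lists without a probe set of their own are not analysed here. The 13 alternatives covered offset, scaling, filter, probe sets, mouse as a block, the prior and each array left out. The number of arrays limits precision.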

Additional observations from a re-analysis of the deposited data

Results flagged for a closer look

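Within-mouse differences, spleen minus blood, had opposite signs in the 2 mice for 3 of the 10 genes, which made these genes stand out. Mouse 2 differed from mouse 1 in this value by -0.23 for H2-K1, by 0.27 for Tapbp and by -0.15 for Psmb10. Each mouse is 1 array per tissue, so the difference between the mice was not tested. For H2-K1 the value within mouse 1 was 0.0047, which is close to 0 in a gene whose standard error was 0.12.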

How the results depend on the processing

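No class I gene passed the adjusted threshold with limma under any of the 13 alternatives, and the count over all genes was 0 except for 45 with an intensity trend in the prior and a range of 0 to 20 over the fits that left out 1 array (20 without spleen of mouse 1). With mouse as a replicate block, 0 genes and 0 class I genes passed, with a smallest adjusted p of 0.300 among the class I genes, and the block changed no call. Leaving out 1 array each time, the median difference of the 10 genes ranged from -0.22 to -0.036. The count of genes with every spleen array below every blood array, added after the data were seen, then ranged from 5 to 8. With all arrays it was 5, and leaving out an array cannot lower it, so this range is no measure of stability. Signs turned for genes near 0: Psmb10 differed by -0.061 with quantile normalization and by -0.089 to 0.094 with 1 array left out. Tapbp differed by 0.014 with centred arrays, by 0.23 with all probe sets averaged and by -0.18 to 0.12 with 1 array left out. H2-D1 differed by -0.24 to 0.0048 with 1 array left out, the last without blood of mouse 2. B2m, H2-K1, Psmb8, Psmb9 and Erap1 kept their sign in all 13 alternatives, and Tap1 and Tap2 in the 12 in which each was tested. The median of the constitutive proteasome core lay between 0.058 and 0.17 over the alternatives, that of folding and peptide supply between 0.045 and 0.15, that of the interferon response between -0.26 and -0.11, and that of class I transcription between -0.11 and 0.028, with the sign turned in 3 of 13. The cause of these shifts was not tested.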

Other observations

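Of the probe sets that the annotation gives to a heavy chain together with other genes, the one of H2-K1 and H2-Q5 had intensities of 343.7 and 301.3 in spleen of mouse 1 and mouse 2, against 344.2 and 379.1 in blood. The one of H2-D1, H2-Q2 and Gm38417 was near background, at 3.18 and 0.26 in spleen, against 13.1 and 21.5 in blood. H2-Ea, a class II chain, had 1203 and 1160 in spleen, against 1335 and 1261 in blood, and differed by -0.15 and -0.12 within mouse 1 and mouse 2. The class II chains H2-Aa, H2-Ab1 and H2-Eb1, named after their values were seen, differed by 0.26, 0.97 and 1.08 within mouse 1, and by -0.95, -1.43 and -1.46 within mouse 2.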
